A study of Homo sapiens with 8 samples.

Results

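The 5 H3K4me3 regions described here carry the names of the chromatin regulator genes BCOR, PHF6, ARID1B, YY1 and PHF23. They were selected on their called bases, which were fewer in every library of KDM5-C70-treated cells than in every library of vehicle-treated cells, so their widths are a description and are not tested. They are 5 of the 83 regions with that property, out of 13729 regions called in all 8 libraries and 50523 merged regions in all. The chromatin came from MM1S, an established human multiple myeloma cell line. The treated cells had received KDM5-C70, an inhibitor of the KDM5 histone demethylases, at 50 uM for 7 days (3 libraries), and the control cells the vehicle DMSO (5 libraries), for which the labels state no time. Each library was made by chromatin immunoprecipitation with an H3K4me3 antibody and has its own list of called regions. Nothing in the labels says that the libraries came from separate cultures, so the spread between them may be technical.

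Trimethylation of histone H3 at lysine 4 marks the promoters of active genes. It is written by the SET1 and MLL methyltransferases and erased by the KDM5 enzymes, and it is read by proteins with a PHD finger, a small zinc-binding fold. The genes named here all act on chromatin. BCOR is a corepressor of BCL6 and a scaffold of a variant Polycomb complex. PHF6 and PHF23 are PHD finger proteins, ARID1B is a DNA-binding subunit of the BAF remodelling complex, and YY1 is a zinc finger transcription factor that also works with the INO80 remodeller.

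On GRCh37, the build of the lists, the BCOR region spans 3832 bp (chrX:39953325-39957156) and the PHF6 region 2117 bp (chrX:133506922-133509038). The ARID1B region spans 3219 bp (chr6:157098270-157101488), the YY1 region 3011 bp (chr14:100704154-100707164) and the PHF23 region 1551 bp (chr17:7141278-7142828). The gene names were given with these positions. No GRCh37 annotation was used, so exons, introns and start sites are not placed inside the regions, and partner genes of these proteins were not looked up. Strand was read from a RefSeq promoter table of GRCh38.p14, which matched 4 of the 5 genes: BCOR and PHF23 on the minus strand, ARID1B and YY1 on the plus strand. Positions inside those 4 regions are counted from the upstream edge in the direction of transcription, and inside the PHF6 region from its low-coordinate edge.

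RefSeq sequence is shown for YY1, which has 1 annotated start in the table, and for ARID1B and PHF23, whose starts lie closer together than their regions are long, so that the base composition of these promoters can be seen. Each line holds the 250 bases before a start, 5′ to 3′, on GRCh38.p14, and whether they fall inside the GRCh37 regions was not determined. Capitals mark matches on either strand to the YY1 core CCATNTT, the ETS motif CCGGAA, the NRF1 motif GCGCATG, the CCAAT box CCAAT or the GC box GGGCGG, and matches that overlap run together.
YY1 (chr14:100238894-100239143, plus strand): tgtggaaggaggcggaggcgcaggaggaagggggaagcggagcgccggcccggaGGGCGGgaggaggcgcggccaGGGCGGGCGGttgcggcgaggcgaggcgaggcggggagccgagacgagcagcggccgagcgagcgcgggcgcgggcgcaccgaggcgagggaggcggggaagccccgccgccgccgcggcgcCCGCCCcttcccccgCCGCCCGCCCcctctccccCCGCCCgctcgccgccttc
ARID1B, first start (chr6:156775776-156776025, plus strand): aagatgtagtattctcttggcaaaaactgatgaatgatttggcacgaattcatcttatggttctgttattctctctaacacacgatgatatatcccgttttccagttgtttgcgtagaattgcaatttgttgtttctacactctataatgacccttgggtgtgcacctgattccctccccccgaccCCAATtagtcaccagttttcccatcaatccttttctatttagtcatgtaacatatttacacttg
ARID1B, second start (chr6:156777128-156777377, plus strand): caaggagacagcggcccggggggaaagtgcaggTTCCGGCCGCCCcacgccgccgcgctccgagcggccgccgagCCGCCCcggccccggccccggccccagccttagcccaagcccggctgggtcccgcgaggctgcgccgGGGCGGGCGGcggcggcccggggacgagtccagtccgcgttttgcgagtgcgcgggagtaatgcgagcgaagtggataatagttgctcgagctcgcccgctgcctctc
PHF23, first start (chr17:7239458-7239707, minus strand): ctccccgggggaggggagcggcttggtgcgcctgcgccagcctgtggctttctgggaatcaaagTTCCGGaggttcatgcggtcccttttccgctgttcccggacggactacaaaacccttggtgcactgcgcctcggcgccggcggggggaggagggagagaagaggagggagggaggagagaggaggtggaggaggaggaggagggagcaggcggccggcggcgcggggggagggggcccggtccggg
PHF23, second start (chr17:7238931-7239180, minus strand): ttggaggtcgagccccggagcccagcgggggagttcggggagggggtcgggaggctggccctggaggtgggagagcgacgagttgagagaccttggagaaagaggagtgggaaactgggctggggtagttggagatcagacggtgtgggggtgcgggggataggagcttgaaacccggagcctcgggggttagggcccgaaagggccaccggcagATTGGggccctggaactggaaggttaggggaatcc

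The YY1 sequence was the most GC-rich of these, at 83.2% G and C with 43 CpG dinucleotides, against a median of 58% over the 35116 windows of the table. It holds 7 matches to the GC box, which is found in 42.6% of all windows, and none to the YY1 core, which is found in 11.6%. The ARID1B starts lie 1352 bp apart and differ in composition. The first has 38.8% G and C with 5 CpG dinucleotides, and the second 76% with 37, and the second holds 4 GC boxes and 1 ETS match, a motif found in 14.5% of all windows. The first holds 1 CCAAT box. For PHF23 the starts lie 527 bp apart, with 70.8% and 65.6% G and C and with 21 and 13 CpG dinucleotides. The first PHF23 sequence holds 1 ETS match and the second 1 CCAAT box, which is found in 32% of all windows. The NRF1 motif, found in 3.77% of all windows, is in none of the 5 sequences. The annotated starts of BCOR lie 30644 bp apart, more than its region is long, and its sequences are not shown.

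The lists differ in length, from 17977 to 37948 regions in KDM5-C70 libraries and from 15323 to 32376 in DMSO libraries, and read depth is unknown. Library sets that cut across treatment were taken from earlier results of these lists: KDM5-C70 1 with DMSO 1 and 2, and KDM5-C70 2 and 3 with DMSO 3, 4 and 5. Deviations from the group means in KDM5-C70 1 correlated at 0.37 and 0.42 with DMSO 1 and 2, and at -0.43 to -0.39 with DMSO 3 to 5. For KDM5-C70 2 and 3 the signs were reversed. Such correlations were computed only between the groups, and deviations inside a group offset each other, so opposite signs are partly forced. The sets coincide with list length. KDM5-C70 1, DMSO 1 and DMSO 2 have the shortest lists, with 17977, 20998 and 15323 regions, and the other lists hold 28195 to 37948. What sets them apart was not tested. Over the 13729 shared regions the median log2 ratio of mean called bases, KDM5-C70 over DMSO, was 0.15, and on inner bases it was -0.07, so the direction of the median depends on the measure. The median of limma's log2 differences of called bases, 0.14 with all libraries, was 0.37 without KDM5-C70 1, 0.031 without KDM5-C70 3 and 0.024 without DMSO 2. In limma over these regions, 0 (0%) passed an adjusted p of 0.05 as narrower and 0 as wider, with 111 narrower and 131 wider at an unadjusted p under 0.05. These unadjusted counts were 111 narrower and 1749 wider without KDM5-C70 1, 446 narrower and 1758 wider with the library set as a term, and 754 narrower and 16 wider on inner segments. The property used to pick the members, no overlap with narrower KDM5-C70 values, held in 83 regions (0.605%), and the reverse in 131 (0.954%). The reverse count was 5430 without KDM5-C70 1, 341 without DMSO 3, 421 after centring each library and 12 on inner segments. The narrower count was 172, 226 and 174 without KDM5-C70 1, 2 and 3, 317 without DMSO 2, 452 after centring and 509 on inner segments. Regions at the edge of that property were ranked by the log2 ratio of the lowest DMSO to the highest KDM5-C70 value, not by bp. The closest region inside the property (chr6:42712717-42715525) had 2107 bp as its highest KDM5-C70 value and 2114 bp as its lowest DMSO value. The closest regions outside it (chr13:30168494-30170532 and chr6:137111951-137114700) had 1267 and 1267 bp, and 1535 and 1532 bp. In the 5 members the distance between the groups was 194 to 819 bp.

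**Figure D1:**
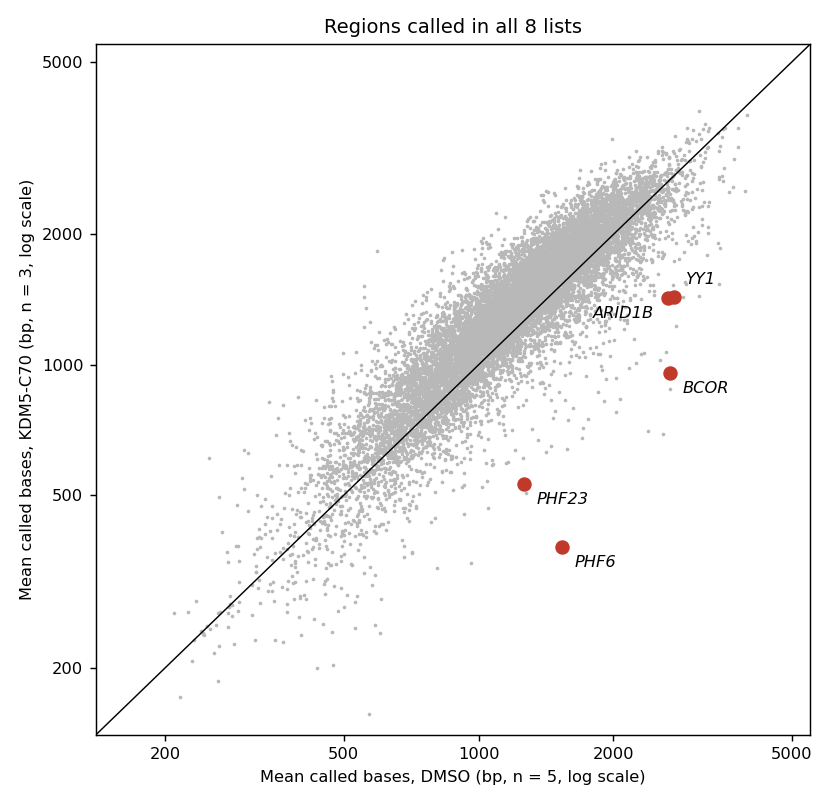
Mean called bases per region in the 3 KDM5-C70 libraries (vertical, log scale, bp) against the 5 DMSO libraries (horizontal, log scale, bp) for the 13729 regions called in all 8 lists, with equal values on the diagonal. The 5 named regions lie below the diagonal because they were picked for that, with PHF6 lowest at a mean of 380 bp with KDM5-C70 and 1536 bp with DMSO.

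**Figure D2:**
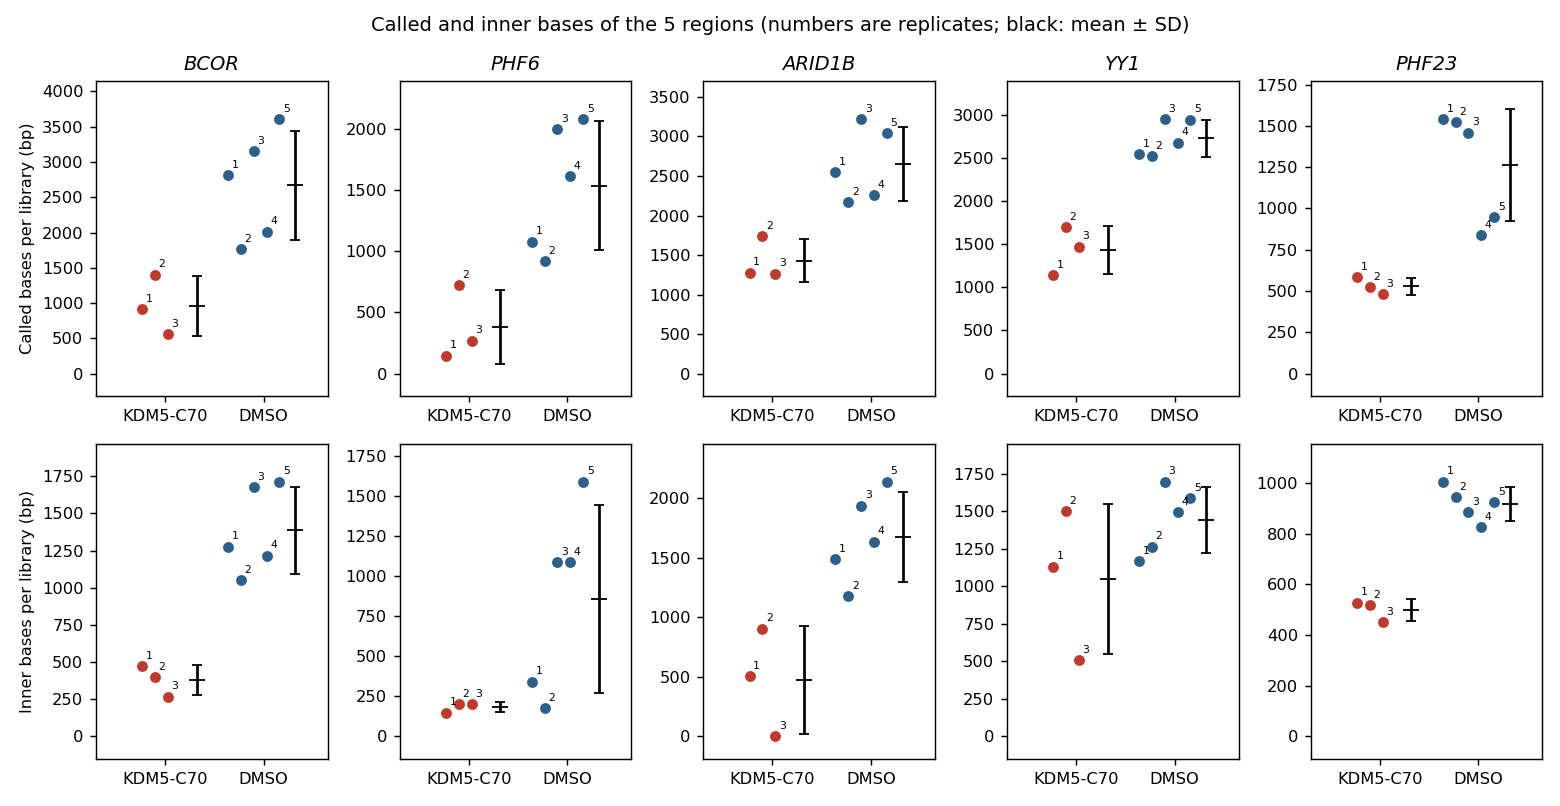
Called bases (top, bp) and bases in inner segments (bottom, bp) of each library in the 5 regions, with KDM5-C70 in red, DMSO in blue, replicate numbers beside the points and mean ± SD in black. Called bases do not overlap between the groups in any region, while inner bases overlap in PHF6 and YY1, where KDM5-C70 2 reached 200 and 1500 bp and the lowest DMSO values were 172 and 1167 bp.

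The regions differed in how they were narrower. The called sequence lacked its upstream part in ARID1B and its downstream part in PHF23, was broken in the middle in YY1, kept a short core in PHF6, and in BCOR was reduced to different stretches in different KDM5-C70 libraries. Inner segments are the blocks over 1 bp that the lists give inside each called region. Their bases did not overlap between the groups in BCOR, ARID1B and PHF23, and did in PHF6 and YY1. Inner bases were narrower without overlap in 3 of 5 members and in 39 of the 83 regions with the property that picked them. Over all shared regions the share was 2.25%. This measure comes from the same contrast that chose the members. Over whole lists, inner segments made up 56.5 to 58.4% of the called sequence in KDM5-C70 libraries and 68.2 to 76.3% in DMSO libraries, and the part of this in the members' inner widths was not tested.

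Ratios inside the sets of libraries show size only, since the choice of the members fixes their sign. KDM5-C70 1 over DMSO 1 and 2 gave log2 ratios of -1.33 for BCOR, -2.77 for PHF6, -1.15 for YY1 and -1.39 for PHF23. KDM5-C70 2 and 3 over DMSO 3, 4 and 5 gave -1.58 for BCOR, -1.93 for PHF6, -0.85 for YY1 and -1.11 for PHF23. The part that list length has in these widths was not tested.

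**Figure D3:**
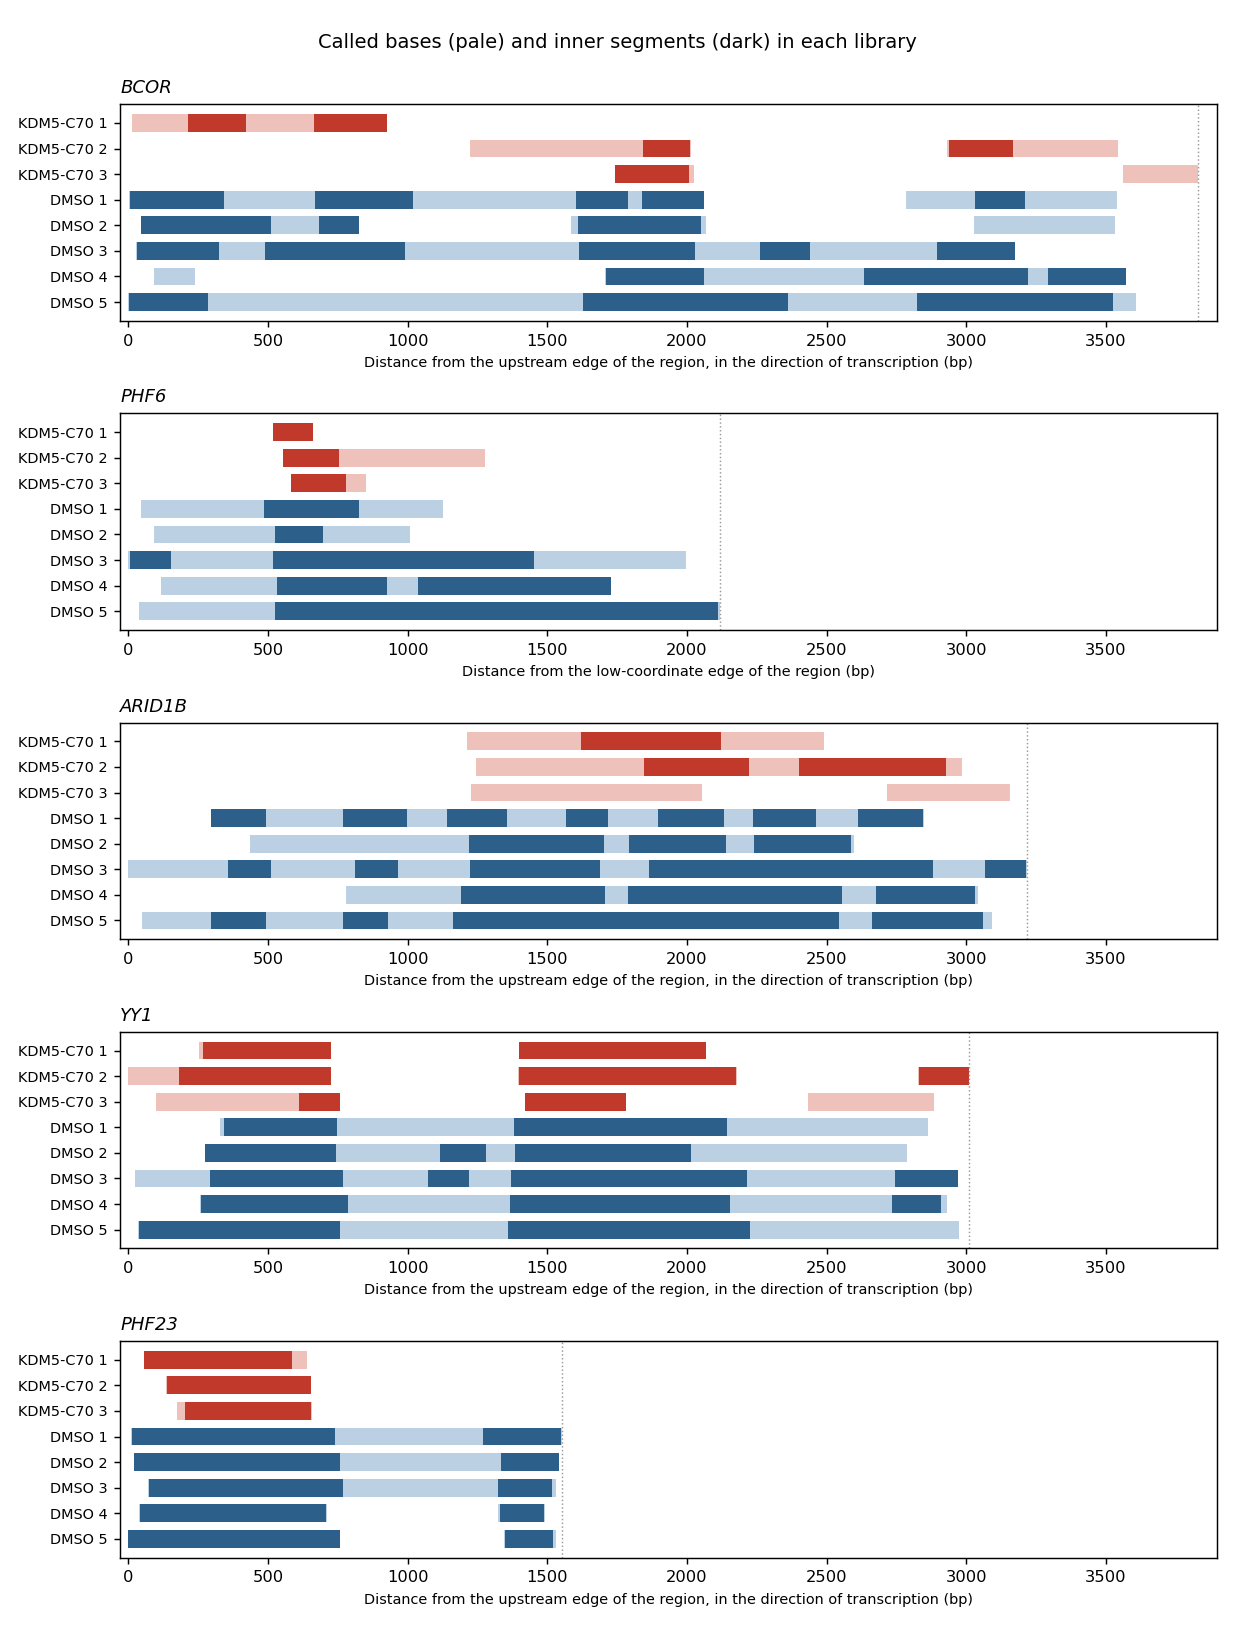
Called bases (pale) and inner segments (dark) of each library in each region, KDM5-C70 libraries in red above DMSO libraries in blue, against distance in bp from the upstream edge (from the low-coordinate edge for PHF6), with a dotted line at the far edge. ARID1B calls start past 1200 bp in all KDM5-C70 libraries, the YY1 call is interrupted at about the same place in all of them, and the downstream PHF23 segment is drawn only in the DMSO libraries.

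BCOR recruits Polycomb-type silencing activity to BCL6 target genes and was the region where the calls of the treated libraries shared the fewest bases. Its called sequence was 913, 1403 and 556 bp in KDM5-C70 1, 2 and 3, and 2817, 1767, 3149, 2012 and 3607 bp in DMSO 1 to 5. The KDM5-C70 mean was 957 ± 425 bp (SD, n = 3) and the DMSO mean 2670 ± 771 bp (SD, n = 5), a log2 ratio of -1.48. The groups did not overlap, but both were spread widely, with coefficients of variation of 44.4% in KDM5-C70 and 28.9% in DMSO libraries.

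KDM5-C70 1 called only the upstream stretch of the BCOR region, from position 13 to 925. KDM5-C70 2 called 1226 to 2016 and 2932 to 3543, and KDM5-C70 3 called 1742 to 2026 and 3562 to 3832. KDM5-C70 1 therefore shared 0 bp with either of the others, which shared 275 bp with each other. No base of the region was called in all 3 KDM5-C70 libraries, a property of 61 of the 13729 shared regions (0.444%), while 27 (0.197%) had no base called in all 5 DMSO libraries. BCOR was picked for few called bases with KDM5-C70, so these shares are a description only.

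In the DMSO libraries 648 bp of the BCOR region were called in all 5, in stretches of 147, 355 and 146 bp from positions 94, 1709 and 3030. The 3 stretches lie in the upstream, middle and downstream parts, and each was called in at least 1 KDM5-C70 library over most of its length, since only 37 bp called in all 5 DMSO libraries were called in no KDM5-C70 library. Calls at BCOR were broken in both groups. Between the first and last called base, 0, 915 and 1535 bp were uncalled in KDM5-C70 1 to 3. In DMSO 1 to 5 the uncalled part was 721, 1720, 0, 1468 and 0 bp. The called span from first to last base was 913, 2318 and 2091 bp in KDM5-C70 1 to 3 and 3149 to 3607 bp in DMSO libraries. Inner segments held 470, 398 and 265 bp in KDM5-C70 1 to 3, and 1276, 1049, 1675, 1216 and 1714 bp in DMSO 1 to 5, again without overlap. With lists of equal length, made of the widest regions of each list, KDM5-C70 2 and 3 had 0 bp in the BCOR region and the log2 ratio was -3.12. Such lists keep calls by width and cut the longer lists most, so narrow calls in those drop out by construction. In this and the other regions, ratios from them do not measure lost sequence.

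PHF6, a PHD finger protein of the nucleolus and chromatin that is mutated in a form of X-linked intellectual disability and in T cell leukaemia, had the lowest ratio of all 13729 shared regions. Its called sequence was 146, 724 and 269 bp in KDM5-C70 1 to 3, and 1079, 918, 1995, 1611 and 2079 bp in DMSO 1 to 5. The KDM5-C70 mean was 380 ± 304 bp (SD, n = 3) and the DMSO mean 1536 ± 525 bp (SD, n = 5), a log2 ratio of -2.02. KDM5-C70 1 lies at 146 bp, which is also the length of the shortest region in every list. Without KDM5-C70 2, the highest of the treated libraries, the ratio was -2.89.

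All 8 libraries had 1 called region at PHF6, and the KDM5-C70 calls began within a narrow window, at positions 517, 555 and 583. The DMSO calls began at 47, 92, 1, 117 and 39. The 400 bp from position 117 to 516 were thus called in all DMSO libraries and in no KDM5-C70 library. The inner segments show less of this, since the first inner segment that reached the core began at 486, 526, 520, 532 and 525 in DMSO 1 to 5, close to where the KDM5-C70 calls began. Inner bases were 146, 200 and 197 bp in KDM5-C70 1 to 3, and 340, 172, 1083, 1086 and 1587 bp in DMSO 1 to 5. DMSO 2 lies inside the KDM5-C70 range and DMSO 1 little above it, while DMSO 3, 4 and 5 are far higher. Only 80 bp were called in all 3 KDM5-C70 libraries, and these lay within the 893 bp called in all DMSO libraries.

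ARID1B, which helps target the BAF nucleosome remodeller, lacked its upstream part in the treated libraries. Its called sequence was 1278, 1740 and 1266 bp in KDM5-C70 1 to 3, and 2552, 2165, 3219, 2263 and 3045 bp in DMSO 1 to 5. The KDM5-C70 mean was 1428 ± 270 bp (SD, n = 3) and the DMSO mean 2649 ± 468 bp (SD, n = 5), a log2 ratio of -0.89. Inside the sets of libraries the ratio was -0.88 for KDM5-C70 1 over DMSO 1 and 2 and -0.92 for KDM5-C70 2 and 3 over DMSO 3, 4 and 5.

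The ARID1B calls began at positions 1214, 1245 and 1227 in KDM5-C70 1 to 3, a spread of 15.6 bp (SD, n = 3). In DMSO 1 to 5 they began at 297, 436, 1, 781 and 48, a spread of 317 bp (SD, n = 5), and all began upstream of every KDM5-C70 call. ARID1B was picked for fewer called bases with KDM5-C70, which favours such a difference at an edge. How often call starts differ without overlap was not counted over all shared regions, so this is a description only. The downstream ends overlapped between the groups, at 342 ± 345 bp short of the far edge in KDM5-C70 libraries (SD, n = 3) and 259 ± 242 bp short of it in DMSO libraries (SD, n = 5). In all 433 bp, from position 781 to 1213, were called in all DMSO libraries and in no KDM5-C70 library, while the core from 1245 to 2053 was called in all 8.

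Inner segments of ARID1B held 501, 904 and 0 bp in KDM5-C70 1 to 3, and 1489, 1178, 1937, 1635 and 2139 bp in DMSO 1 to 5. KDM5-C70 3 had called sequence with no inner segment at all, and the log2 ratio of inner bases was -1.84. Upstream of position 1000 the DMSO libraries were not uniform, because DMSO 1, 3 and 5 had inner segments there and DMSO 2 and 4 had called sequence without one. The authors' -log10 q-value ranks the ARID1B call high within the KDM5-C70 lists, at percentiles 97.2, 86.6 and 96.5, and lies between percentiles 17.1 and 89.1 within the DMSO lists. With regions limited to a -log10 q-value of at least 5, DMSO 1, 2 and 4 had 0 bp at ARID1B, and the log2 ratio turned to 0.033.

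YY1, a transcription factor that links enhancers and promoters, had a break inside the call in every KDM5-C70 library, while its outer span overlapped between the groups. Its called sequence was 1141, 1696 and 1471 bp in KDM5-C70 1 to 3, and 2538, 2515, 2947, 2676 and 2941 bp in DMSO 1 to 5. The KDM5-C70 mean was 1436 ± 279 bp (SD, n = 3) and the DMSO mean 2723 ± 211 bp (SD, n = 5), a log2 ratio of -0.92, and the groups lie 819 bp apart, the widest distance of the 5 members. The DMSO coefficient of variation was 7.73%, lower than in all but 3.64% of shared regions. YY1 was picked on these same widths, and a rule of no overlap between the groups favours a small spread. This rank is therefore a description only.

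Every DMSO library called YY1 as 1 region, and KDM5-C70 1, 2 and 3 called it as 2, 3 and 3. That combination, 1 region in every DMSO library and at least 2 in every KDM5-C70 library, occurred in 25 shared regions (0.182%), and the reverse in 2 (0.0146%). Breaks lower the called bases on which YY1 was picked, and the count was made after the positions were seen. These shares are therefore a description and no test. The first break ran from position 727 to 1400 in KDM5-C70 1, from 728 to 1395 in KDM5-C70 2 and from 758 to 1419 in KDM5-C70 3. It lay between the main inner segments, whose edges facing the break were in nearly the same place in all libraries. The upstream one ended at 726, 725 and 757 in KDM5-C70 1 to 3 and at 748, 742, 769, 787 and 756 in DMSO 1 to 5. The downstream one began at 1401, 1398 and 1420 in KDM5-C70 1 to 3 and at 1383, 1386, 1371, 1366 and 1360 in DMSO 1 to 5. Between them DMSO 2 and 3 each had 1 short inner segment, from 1116 to 1281 and from 1073 to 1218, and the other DMSO libraries had called sequence without one.

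The inner bases of YY1 accordingly overlapped between the groups, with 1129, 1500 and 508 bp in KDM5-C70 1 to 3 and 1167, 1263, 1696, 1492 and 1584 bp in DMSO 1 to 5. KDM5-C70 3 was the lowest and KDM5-C70 2 lay above DMSO 1, 2 and 4. The called span from first to last base was 1815, 3011 and 2786 bp in KDM5-C70 1 to 3 and 2515 to 2947 bp in DMSO libraries. On that span, and likewise when calls within 1000 bp were joined, the log2 ratio was -0.10. With lists of equal length, KDM5-C70 2 and 3 had 0 bp at YY1 and the ratio was -2.84. In all, 891 bp of the YY1 region were called in all 5 DMSO libraries and in no KDM5-C70 library, 638 bp of them in the first break and 253 bp from position 2182 to 2434.

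PHF23, whose PHD finger binds H3K4me3 itself, was the most uniform of the 5 among the treated libraries. Its called sequence was 584, 522 and 483 bp in KDM5-C70 1 to 3, and 1541, 1523, 1460, 841 and 947 bp in DMSO 1 to 5. The KDM5-C70 mean was 530 ± 50.9 bp (SD, n = 3) and the DMSO mean 1262 ± 340 bp (SD, n = 5), a log2 ratio of -1.25. The DMSO values split, with DMSO 4 and 5 well below DMSO 1, 2 and 3 yet above every KDM5-C70 value.

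The DMSO libraries held 2 inner segments at PHF23, and the KDM5-C70 libraries held 1. The downstream segment measured 279, 208, 192, 157 and 170 bp in DMSO 1 to 5, between positions 1271 and 1549. No KDM5-C70 library called any base there, since their calls ended at 639, 655 and 656. DMSO 4 and 5 left 615 and 585 bp between the segments uncalled, but both called the downstream segment. The upstream segment measured 528, 517 and 450 bp in KDM5-C70 1 to 3, and 728, 739, 696, 669 and 757 bp in DMSO 1 to 5, so it was also shorter without overlap. At PHF23, 190 bp were inner sequence in all 5 DMSO libraries and called in no KDM5-C70 library, and 13 of the 13729 shared regions (0.0947%) had at least 100 such bases. PHF23 was picked for fewer called bases with KDM5-C70, so this share is a description only. On inner bases the log2 ratio was -0.88, with 528, 517 and 450 bp in KDM5-C70 1 to 3 and 826 to 1007 bp in DMSO libraries. With lists of equal length it was -2.22 on called bases, with 0 bp in KDM5-C70 2 and 3 and in DMSO 4 and 5.

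The KDM5-C70 libraries agreed on the PHF23 call more closely than on any other of the 5 regions. The Jaccard index, the bases called in both libraries over those called in either, was 0.775 to 0.922 between KDM5-C70 libraries, 0.54 to 0.988 between DMSO libraries and 0.313 to 0.694 between the groups. For YY1 it was 0.469 to 0.673 between KDM5-C70 libraries and 0.853 to 0.995 between DMSO libraries. For ARID1B it was 0.482 to 0.704 between KDM5-C70 libraries and 0.673 to 0.946 between DMSO libraries. For PHF6 it was 0.142 to 0.372 between KDM5-C70 libraries and 0.442 to 0.924 between DMSO libraries. For BCOR the KDM5-C70 pairs lay between 0 and 0.163 and the DMSO pairs between 0.352 and 0.873. In all regions but PHF23, then, the mean overlap was lower among KDM5-C70 pairs than among DMSO pairs. The members were picked for few called bases with KDM5-C70, and short or broken calls can lower this index. It was not computed over all shared regions, so the contrast is a description only.

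Almost all sequence called with KDM5-C70 in these regions lay inside sequence called in some DMSO library. The share was 100% for PHF6, ARID1B and PHF23, 97.2% for YY1 and 91.3% for BCOR. In the other direction, at least 100 bases were called in all 5 DMSO libraries and in no KDM5-C70 library in 4 of the 5 members (PHF6, ARID1B, YY1 and PHF23), against 108 of 13729 shared regions (0.787%). The opposite, at least 100 bases called in all 3 KDM5-C70 libraries and in no DMSO library, held in 167 shared regions (1.22%) and in no member. These shares and counts follow in part from how the members were picked. The shares of contained sequence also rest on 5 DMSO lists against 3 KDM5-C70 lists, and were not computed over all shared regions.

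Widths in the DMSO lists were part of the choice of the members and are given as a description. The 83 regions with the same property had a median DMSO width of 1753 bp, against 1228 bp for all shared regions. Within the DMSO lists the called sequence lay at percentiles 93.4 to 99.8 of width for BCOR, 96.4 to 99.4 for ARID1B and 98.7 to 99.5 for YY1. PHF6 lay at 59.2 to 93.2 and PHF23 at 53.6 to 91. Within the KDM5-C70 lists the percentiles were 33.3 to 71.2 for BCOR, 69.5 to 82 for ARID1B, 71.2 to 80.7 for YY1, 0 to 40.8 for PHF6 and 28.2 to 32.4 for PHF23. The members also differed in how the authors' -log10 q-value ranked them within a list, where ranks from lists of different lengths show no change. YY1 lay at percentiles 25.5 to 39 in KDM5-C70 lists and 20.4 to 44.5 in DMSO lists, and BCOR at 6.79 to 59.4 in KDM5-C70 lists and 23.1 to 53.9 in DMSO lists. PHF23 ranked higher, at 72.2 to 91.3 in KDM5-C70 lists and 71.3 to 96.5 in DMSO lists. PHF6 ranked from 1.63 to 98.7 in KDM5-C70 lists, with its shortest call, in KDM5-C70 1, the highest, and from 0.744 to 78.9 in DMSO lists.

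Within 25 kb of the 5 regions lay 13 other merged regions, and all 8 libraries had a call in 8 of them. Their groups overlapped in every case, with log2 ratios from -0.30 to 0.40, below 0 in 3 of the 8. Overlap is the common case, since 0.605% of all shared regions were narrower and 0.954% wider without it, so nothing particular to these neighbours follows from it.

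PHF23 lies in the most crowded stretch, with 6 neighbours called in all 8 libraries. The nearest of them begins 1902 bp from the region (chr17:7144731-7146843) and had 782, 1114 and 1872 bp in KDM5-C70 1 to 3, and 629, 218, 2010, 1796 and 1786 bp in DMSO 1 to 5. Its groups overlapped, with KDM5-C70 3 close to the highest DMSO values and DMSO 2 the lowest of all. The neighbour on the other side, 2364 bp away (chr17:7136522-7138913), had 889, 2360 and 1027 bp in KDM5-C70 1 to 3 and 475 to 1596 bp in DMSO libraries.

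**Figure D4:**
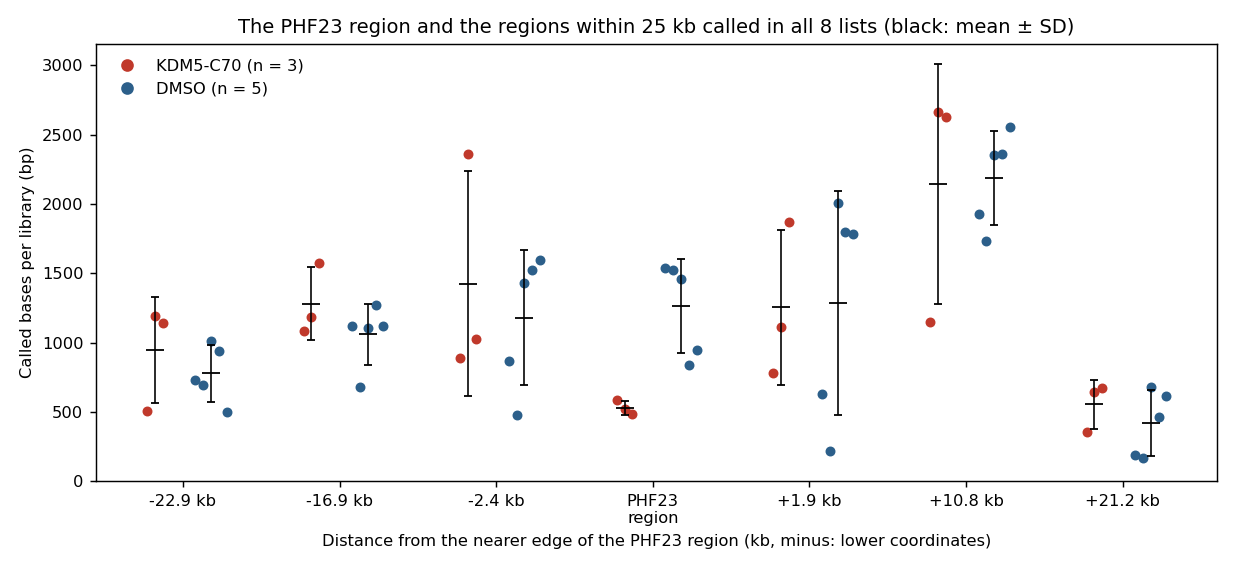
Called bases per library (vertical, bp) at the PHF23 region and at its 6 neighbours within 25 kb called in all 8 lists, ordered along the chromosome by distance in kb, with KDM5-C70 in red left of DMSO in blue and mean ± SD in black. The groups overlap at every neighbour, and at PHF23 the 3 KDM5-C70 libraries sit between 483 and 584 bp, below all DMSO libraries at 841 to 1541 bp.

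BCOR has 1 close neighbour called in all 8 libraries, upstream of it by 6979 bp (chrX:39964136-39969279). It had 1135, 2869 and 1981 bp in KDM5-C70 1 to 3, and 2094, 1088, 3571, 2727 and 2827 bp in DMSO 1 to 5. KDM5-C70 1 and DMSO 2 were lowest, KDM5-C70 3 lay below DMSO 1, and KDM5-C70 2 lay within the range of DMSO 3, 4 and 5, so the groups overlapped. A small call 590 bp upstream of the BCOR region (chrX:39957747-39958283) was present in KDM5-C70 2, with 336 bp, and in DMSO 3, 4 and 5, with 283 to 382 bp, and in none of KDM5-C70 1, KDM5-C70 3, DMSO 1 and DMSO 2. The neighbour of YY1 called in all 8 libraries (chr14:100680015-100681192) had 861, 793 and 872 bp in KDM5-C70 1 to 3 and 539 to 1013 bp in DMSO libraries.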

How the data were processed

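H3K4me3 ChIP-seq was made from 3 KDM5-C70 and 5 DMSO libraries of MM1S cells. The submitters' processing notes list GRCh37 and the programs MACS2 2.1.0, HOMER 4.8, Bowtie 1.1.2 and Trim Galore 0.40, in no stated order. How each was set, and whether a control was used, is not given in the sources used here. Per library the authors deposited a table of gapped regions: positions and inner blocks, a score for display, enrichment as a fold (ratio), and p-value and q-value as -log10. No read counts were used, so no counting interval can be given. Region names inside the lists of DMSO 3, 4 and 5 carry the numbers 4, 5 and 6, and libraries are named here by their labels. The list of DMSO 3 also held 7 regions on sequences whose names begin with Dros, which were left out. No other list held any.

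Regions on chromosomes 1 to 22 and X were merged where they overlapped by at least 1 bp. Called bases are those a library has in a merged region, and blocks of 1 bp were left out of inner segments. A ratio is the log2 of mean called bases, KDM5-C70 over DMSO. limma 3.58.1 in R 4.3.3 was fitted, as background only, to log2 called bases of the shared regions (those with a call in each of the 8 lists), using a trended variance and Benjamini-Hochberg adjustment. Merging was tested on simulated intervals, and limma on simulated widths with large changes, less spread than these lists and no library sets. That simulation does not show how well limma finds changes in these data. The remaining work was done with pandas 2.3.3, numpy 2.4.6 and matplotlib 3.10.9 in Python 3.11.15. All 5 members are named whatever their values. The members, library sets and measures were chosen with earlier results of these data known, and the counts of broken calls, of bases lost in every library and of neighbours after the called positions were seen. Alternatives covered the measure of width, stricter lists, lists of equal length, joining, centring, the replicate number as a block, the library sets and leaving out each library.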

Additional observations from a re-analysis of the deposited data

Results flagged for a closer look

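In the BCOR region, the called span from first to last base was 3149 bp in DMSO 3 and 3480 to 3607 bp in the other DMSO libraries, so that DMSO 3 stood apart from its group by more than Dixon's limit for 5 values. Its call was unbroken and ended earlier on the downstream side. This search was run on 20 sets of DMSO values and marked 1, and by chance it marks about 5%.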

How the results depend on the processing

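Of 97 member ratios recomputed under alternatives, 96 stayed below 0, and 80 moved by less than the spread between libraries; for those that only leave out or reweight libraries the choice of the members fixes the sign, so the tally is no sign of stability. The exception was ARID1B, at 0.033 with a -log10 q-value of at least 5, where PHF6 was at -3.04, with 1 library of each group left, and PHF23 at -1.91. BCOR and YY1 had no KDM5-C70 call left under that limit. Most of their DMSO calls were gone too, with BCOR left only in DMSO 1 and YY1 only in DMSO 3 and 5. PHF6 had no KDM5-C70 call in lists of equal length, so these 3 ratios could not be computed. In lists of equal length BCOR was at -3.12, ARID1B at -1.40, YY1 at -2.84 and PHF23 at -2.22. Those lists keep calls by width, so narrow calls in the longer lists drop out by construction. On inner segments ARID1B was at -1.84, YY1 at -0.46 and PHF23 at -0.88. YY1 was also at -0.10 on the outer span and with calls joined within 1000 bp, at -1.95 on the widest single call, and at -1.15 in DMSO 1, DMSO 2 and KDM5-C70 1 alone. With only calls lying mostly in the middle of a region, BCOR was at -2.64 and YY1 at -2.17. Leaving out single libraries, PHF6 ranged from -2.89 to -1.63, and no other member moved beyond its spread. The cause of these changes was not tested.

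The 83 regions narrower in every KDM5-C70 library became 509 of 14692 regions on inner segments, 38 with lists of equal length, 452 with libraries centred and 1 of 10 shared regions with stricter lists. Leaving out single libraries they ranged from 84 to 317. limma called 1 narrower region with stricter lists, and 22 narrower and 5 wider after centring when library set was added as a term. Centring moved the median log2 difference of all shared regions to -0.02, against 0.14 uncentred. With the replicate number as a block it called 8 narrower and 2 wider regions. The numbers do not pair the libraries: deviations of same-numbered libraries correlated at 0.37, -0.31 and 0.32 for numbers 1 to 3, and only KDM5-C70 3 correlated best with its own number. The block leaves out DMSO 4 and 5, and the members' ratios moved little under it (PHF6 -2.04). Depth is unknown, so bases outside a call may still have carried the mark.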
